A study of Homo sapiens with 2 samples.

Results

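The microRNA precursor loci read by the array were 240 probe sets of 207 loci. They were chosen by name and level: the platform annotation had to give the probe set exactly 1 gene symbol, the symbol had to begin with MIR and a digit and not end in HG (a host gene), and the higher of its 2 log2 values had to reach 5.35, the median of all named probe sets over both arrays. The annotation named 1226 such probe sets of 1062 loci, so 207 of 1062 loci passed the level limit, and 986 of 1226 probe sets lay below it. The study measured A549 cells, an established human lung adenocarcinoma line, on 2 Affymetrix whole-transcript arrays: one of cells transfected with siP62, an siRNA against p62/SQSTM1 (a receptor of selective autophagy), and one of cells transfected with siCONTROL. Both were grown under standard conditions and their total RNA was taken after 24 hours. Each group was 1 array, so every value below is 1 measurement, no difference carries a replicate error and no test between the groups was possible.

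A microRNA is cut from a hairpin within a longer primary transcript, first by the nuclear enzyme DROSHA with its partner DGCR8 and then, after export by XPO5, by DICER1 in the cytoplasm. The mature strand is loaded into an Argonaute protein and pairs with messenger RNAs mainly through its seed, bases 2 to 8, and GW182 proteins such as TNRC6B carry out the silencing. Many hairpins lie in introns of host genes or in clusters that share 1 primary transcript. The array was hybridised with cDNA of total RNA, so a probe set at a microRNA locus can read the primary transcript, the host transcript or the hairpin, and its value is not a level of the mature microRNA.

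The mature sequences below are those of the loci on which the results turn, from RefSeq (GRCh38.p14), with the seed in capitals. MIR3190 had the lowest difference of all members. MIR502 and MIR500B are neighbours on chromosome X, and the MIR3689 loci are a tandem group of near copies on chromosome 9. MIR30E and MIR27B were among the loci higher in the siP62 array. MIR23B is the neighbour of MIR27B, and MIR21 is a carcinoma locus past the limit. The others are pairs that share a seed: miR-25-3p and miR-92b-3p, miR-15a-5p and miR-16-5p, and miR-1321 and miR-4756-5p.
hsa-miR-3190-3p: uGUGGAAGguagacggccagaga
hsa-miR-502-5p: aUCCUUGCuaucugggugcua
hsa-miR-500b-5p: aAUCCUUGcuaccugggu
hsa-miR-3689a-5p: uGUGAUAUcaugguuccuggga
hsa-miR-3689b-5p: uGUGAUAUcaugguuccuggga
hsa-miR-3689f: uGUGAUAUcgugcuuccuggga
hsa-miR-3689d: gGGAGGUGugaucucacacucg
hsa-miR-30e-5p: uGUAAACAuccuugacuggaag
hsa-miR-27b-3p: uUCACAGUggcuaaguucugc
hsa-miR-23b-3p: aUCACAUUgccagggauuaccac
hsa-miR-25-3p: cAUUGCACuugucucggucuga
hsa-miR-92b-3p: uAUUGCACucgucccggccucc
hsa-miR-15a-5p: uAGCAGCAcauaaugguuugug
hsa-miR-16-5p: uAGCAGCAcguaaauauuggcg
hsa-miR-1321: cAGGGAGGugaaugugau
hsa-miR-4756-5p: cAGGGAGGcgcucacucucugcu
hsa-miR-21-5p: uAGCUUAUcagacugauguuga
The MIR3190 hairpin lies at chr19:47226942-47227021 on the plus strand and that of MIR502 at chrX:50014598-50014683 on the plus strand. Mature sequences were found in the table for 186 of the 207 loci.

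The siRNA's target, SQSTM1, read 7.30 (log2) in siP62 cells, against 8.64 in siCONTROL cells, a difference of -1.34. Of 15 genes listed as A549 markers, 8 were named on the array and 6 reached the level limit. The epithelial keratin KRT18 had 11.97 in the siP62 array, against 11.95 in the siCONTROL array, whereas the markers of alveolar type II cells were low. SFTPB passed the limit through the siCONTROL array alone, with 5.30 in siP62 and 5.66 in siCONTROL, and SFTPC and NKX2-1 lay below it in both. Of the markers of other cells, 3 of 9 were named. The endothelial genes PECAM1 and VWF lay below the limit, and CD68, a lysosomal protein of macrophages, had 8.42 in siP62 and 8.48 in siCONTROL.

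MicroRNA loci had lower values in the siP62 array as a group. The median difference, siP62 minus siCONTROL on the log2 scale, was -0.09 over the 240 probe sets and 0.04 over all 8350 named probe sets that passed the same level limit. In 148 probe sets the siP62 value was the lower one, in 86 the higher one and in 6 both were equal, so that 61.7% lay below 0, against 41.8% of all named probe sets past the limit. The quartiles of the members were -0.30 and 0.12, against -0.11 and 0.19 for all named probe sets past the limit.

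At 1.5-fold or more, 18 of 240 members (7.5%) were lower in the siP62 array, against 1.57% of all named probe sets past the limit, and 4 members (1.67%) were higher, against 2.1%. At 2-fold, 1 member was lower, against 0.216% of all, and 0 were higher, against 0.156%. Since the arrays carry no replicate, these shares describe 2 arrays and not the effect of the siRNA.

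The members lay low on the scale, with 48.8% of them in the lowest 5 of 20 bins of equal size by mean level. Named probe sets that are no microRNA, weighted to the members' bins, had a median difference of 0.04, with 1.46% lower and 2.88% higher by 1.5-fold or more and 42.4% below 0. Of the 16 bins with at least 5 members, 14 had a lower median difference for microRNA than for the other probe sets. The exceptions were the bins at mean levels of 5.75 to 5.92 and of 7.155 to 7.345. The robust SD over the other probe sets (scaled median absolute deviation) was 0.39 in the lowest bin and between 0.15 and 0.27 in the rest, and single differences of that size are within the common spread between these arrays. The 18 small nucleolar and Cajal body RNA probe sets past the limit are another class of short noncoding RNA. Their median difference was 0.03, with 8 lower and 10 higher. They were not weighted to the members' bins and lay higher on the scale. Their median levels were 7.415 in siP62 and 7.045 in siCONTROL, against 6.075 and 6.21 for the microRNA probe sets.

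**Figure D1:**
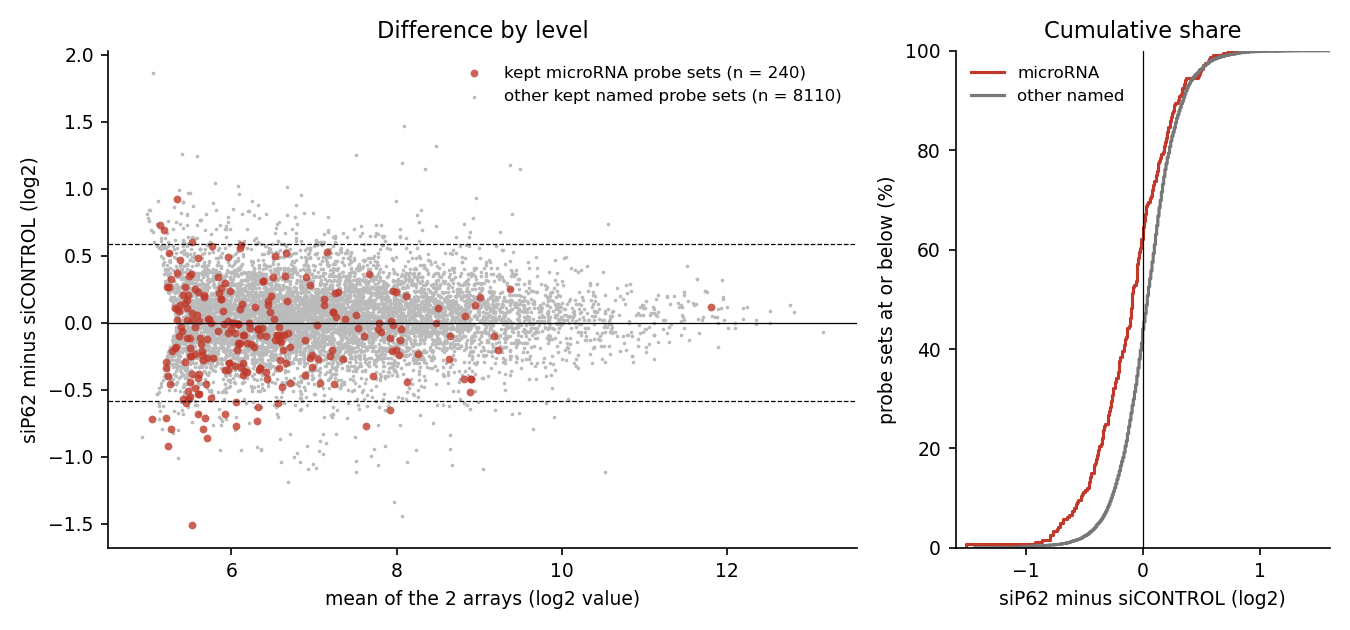
Left, the difference siP62 minus siCONTROL (log2) against the mean of the 2 arrays (log2 value) for 240 microRNA probe sets (red) and 8110 other named probe sets (grey) past the level limit, with dashed lines at 1.5-fold; right, the cumulative share of probe sets (%) by difference. The red curve runs to the left of the grey one over most of its length, with medians of -0.09 for microRNA and 0.04 for all named probe sets.

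The level limit itself shapes the largest differences, because a probe set could pass through 1 array alone. There were 193 members at or above the limit in both arrays. Their median difference was -0.08, with 120 lower and 67 higher, 8 of them (4.15%) lower by 1.5-fold or more and 0 higher. Level-weighted other probe sets at or above the limit in both arrays had a median of 0.03, with 1.07% lower and 1.54% higher by 1.5-fold. Another 28 members had a siP62 value below the limit and 19 a siCONTROL value below it, and by this choice the 28 were all lower in siP62 and the 19 all higher. They held 10 of the 18 members lower by 1.5-fold and all 4 of those higher. Just inside the limit, the higher value was 5.35 for MIR3605 and MIR589, 5.36 for MIR3620 and 5.37 for MIR194-2. Just outside it, the value was 5.34 for a probe set of MIR130B and for 3 of MIR3135B.

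The 8 probe sets that were lower by 1.5-fold or more with both values above the limit came from 8 loci. MIR502 had 7.24 in the siP62 array, against 8.01 in the siCONTROL array, a difference of -0.77. The robust SD of the probe sets in its bin that are no microRNA was 0.21, which does not measure the error of MIR502 itself. MIR3689F had 7.59 in the siP62 array, against 8.24 in the siCONTROL array (-0.65). MIR92B, of the family of miR-25 and miR-92, had 6.27 in the siP62 array, against 6.87 in the siCONTROL array (-0.60).

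MIR191, a broadly expressed locus within DALRD3, had 5.58 in the siP62 array, against 6.26 in the siCONTROL array (-0.68). MIR1908 lies within FADS1, a fatty acid desaturase gene, and had 6.01 in the siP62 array, against 6.64 in the siCONTROL array (-0.63). MIR4522 (5.67 in siP62, 6.44 in siCONTROL), MIR596 (5.95 in siP62, 6.68 in siCONTROL) and MIR3972 (5.76 in siP62, 6.35 in siCONTROL) differed by -0.77, -0.73 and -0.59. All 8 stood above the limit in both arrays, and each was read by 1 probe set except MIR3689F.

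MIR3190 had the lowest difference of the members, but its siP62 value lay below the limit and is not shown to be above background. One of its probe sets had 4.77 in the siP62 array, against 6.28 in the siCONTROL array (-1.51), another 4.77 in siP62 and 5.69 in siCONTROL (-0.92). A further one, below the limit in both, had 4.37 in siP62 and 4.79 in siCONTROL (-0.42). The locus lies inside BBC3, which encodes the apoptosis inducer PUMA, on the opposite strand. BBC3 had 6.12 in the siP62 array, against 5.85 in the siCONTROL array, a difference of 0.27 in the other direction.

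The other members lower by 1.5-fold also had siP62 values below the limit, between 4.68 for MIR4296 and 5.33 for MIR3689D2. MIR4526 differed by -0.86, MIR3163 and MIR423 each by -0.79, MIR4296 by -0.72, MIR3934 and MIR3689D2 each by -0.71, MIR571 by -0.68 and MIR3189 by -0.60. Of these, MIR423 had a further probe set at 2.89 in the siP62 array, against 3.05 in the siCONTROL array, which differed by -0.16.

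The members higher by 1.5-fold came from siCONTROL values below the limit. MIR4267 had 5.80 in the siP62 array, against 4.88 in the siCONTROL array (0.92), and its second probe set, below the limit, 4.78 in siP62 and 4.34 in siCONTROL (0.44). MIR4653 had 5.50 in siP62 and 4.77 in siCONTROL (0.73), and its second probe set 6.05 in siP62 and 5.48 in siCONTROL (0.57). Both probe sets of either locus were higher in the siP62 array. The limit fixed that sign for the first one given of each locus, so only the second could have differed in direction.

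MIR3130-1 had 5.53 in the siP62 array, against 4.84 in the siCONTROL array (0.69). Its second probe set, with 4.37 in siP62 and 4.57 in siCONTROL, differed by -0.20. Which of these probe sets lies on the strand of the hairpin was not checked. MIR30E, of the miR-30 family and within the transcription factor gene NFYC, had 5.83 in siP62 and 5.23 in siCONTROL (0.60). Of the 6 MIR30 loci on the array it alone passed the limit. Among the members above the limit in both arrays, the highest difference was that of MIR27B, with 6.41 in siP62 and 5.83 in siCONTROL (0.58).

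**Figure D2:**
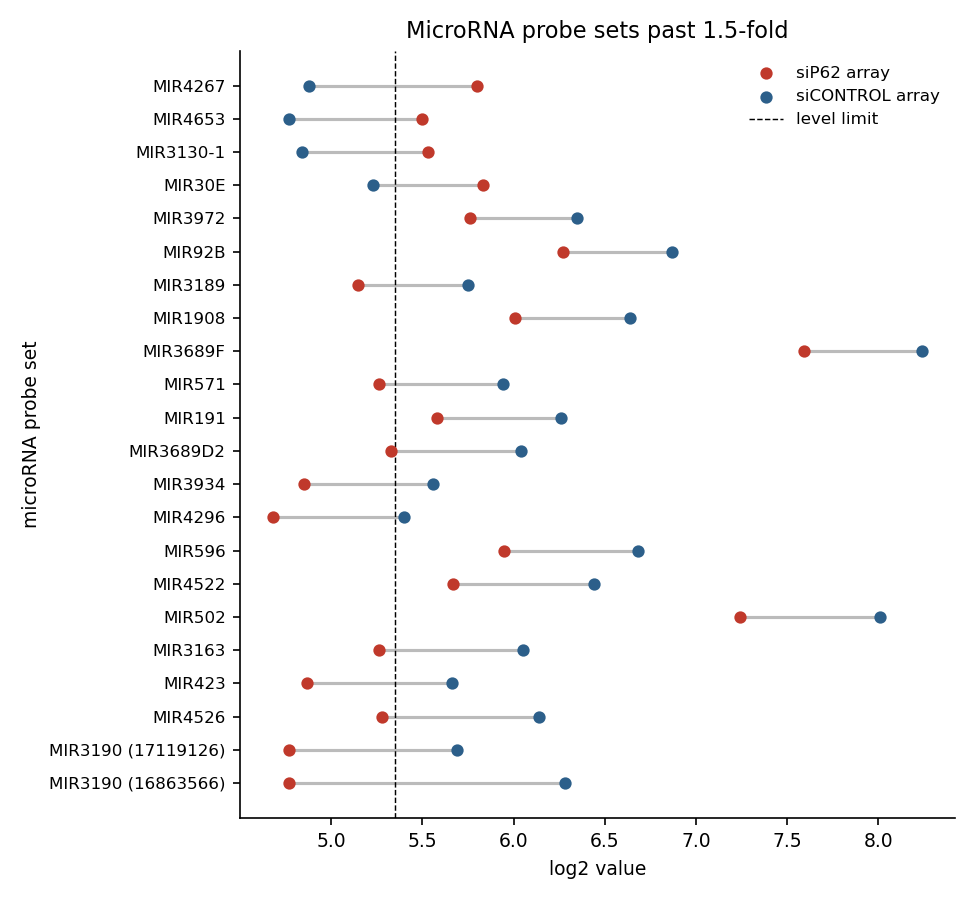
Log2 values of the 22 microRNA probe sets that differed by 1.5-fold or more, with the siP62 array in red, the siCONTROL array in blue and the level limit of 5.35 dashed. The 4 higher probe sets at the top all start from siCONTROL values below the limit, and 8 of the 18 lower ones lie to the right of it in both arrays.

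None of the 12 probe sets with the highest mean level differed by 1.5-fold. MIR4737 had the highest, with 11.86 in the siP62 array, against 11.74 in the siCONTROL array. It lies within HEATR6, whose strand was not in the tables used and which had 8.70 in siP62 and 8.47 in siCONTROL. MIR622 had 9.49 in siP62 and 9.24 in siCONTROL. MIR2909 had 9.13 in siP62 and 9.33 in siCONTROL, but its second probe set, below the limit, had 4.69 in siP62 and 4.93 in siCONTROL. MIR4442 had 9.13 in siP62 and 9.23 in siCONTROL, and its second probe set 6.91 in siP62 and 7.18 in siCONTROL (-0.27).

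MIR4732 (0.19), MIR1914 (0.13), MIR4673 (0.05) and MIR663B (-0.10) also differed by less than 1.5-fold. The largest differences of the 12 highest probe sets were those of MIR4481, with 8.63 in the siP62 array, against 9.15 in the siCONTROL array (-0.52), MIR574, with 8.69 in siP62 and 9.11 in siCONTROL (-0.42), and MIR4521, with 8.60 in siP62 and 9.02 in siCONTROL (-0.42). MIR574 was read by 2 probe sets with the same values. MIR4481, MIR574 and MIR4521 lie in the bin of mean levels from 8.635 to 9.05. Its 9 microRNA probe sets had a median difference of -0.27, which counts the same MIR574 values 2 times. The other probe sets of the bin had a median of 0.06 and a robust SD of 0.19. A second probe set of MIR4521, with 2.82 in siP62 and 3.65 in siCONTROL, lay far below the limit. Values of different probe sets rest on different probes and do not rank the loci by abundance.

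Loci that passed the limit had hairpins richer in G and C than those that did not. Loci past the limit had a median hairpin GC content of 60.3% (quartiles 54.3% and 65.9%, 176 of 207 loci with a hairpin sequence), against 45.7% (quartiles 40.3% and 53.3%, 698 of 855) for loci below it. Across 874 loci, which share both arrays and differ in probes, GC content and mean level had a Pearson correlation of 0.64. Over the 176 loci past the limit alone, it was 0.18. Whether this came from the hybridisation of GC-rich probes or from the RNA was not tested. Over the same 176 loci, GC content and the difference had a correlation of -0.12, with median differences of -0.09, -0.085 and -0.12 in 3 groups of loci from low to high GC.

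Loci with high symbol numbers, which are later entries of the microRNA registry, passed more often. Of the loci with symbol numbers under 1000, 74 of 517 (14.3%) passed the limit, and of those numbered 1000 or over, 133 of 545 (24.4%). Their median differences were -0.065 and -0.10. MIR548, a large primate family, had 3 of 40 loci past the limit, and none of 8 MIR378, 7 MIR320 or 4 MIR29 loci passed it.

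Of the loci listed as markers of other cell types, 1 passed the limit. None passed among those named on the array of liver (MIR122), muscle (7 loci), neuron (6), leukocyte (5), endothelium (MIR126), mesenchyme (3) and squamous epithelium (2). Their highest value in the siP62 array was 4.56 and in the siCONTROL array 4.75, both of MIR124-2. MIR375, known from pancreatic islets and other endocrine cells, had 6.62 in siP62 and 6.80 in siCONTROL. The list is not complete and does not show that loci of other cell types were absent. MIR520E and MIR518B, of a cluster known from placenta, were not on it and passed the limit.

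Of the 21 epithelial and cancer loci of the list that were named on the array, 3 passed. MIR21, an oncogenic microRNA of many carcinomas, had 8.07 in the siP62 array, against 7.83 in the siCONTROL array (0.24). MIR210, the main hypoxia-induced microRNA, had 6.86 in siP62 and 7.10 in siCONTROL (-0.24), and MIR24-2 had 5.95 in siP62 and 5.86 in siCONTROL (0.09). The epithelial loci MIR200C and MIR141 had siP62 values of 2.32 and 2.48 and siCONTROL values of 2.72 and 2.82, and MIR31 had 4.36 in siP62 and 4.30 in siCONTROL. Its host transcript MIR31HG, which the naming rule leaves out, had 8.45 in siP62 and 7.54 in siCONTROL, a difference of 0.91. Other host transcripts with an HG symbol past the limit went both ways. MIR22HG was higher (0.18), whereas MIR550A3HG (-0.41) and the probe sets of MIR4435-2HG (-0.33, -0.51 and -0.42) were lower.

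Of 11 clusters (loci on 1 strand whose starts lie within 10 kb of the next) with at least 2 loci past the limit, 4 had all their probe sets on one side of 0. With only probe sets at or above the limit in both arrays, a restriction chosen after seeing the data, 9 clusters kept at least 2 loci, of which 2 were lower throughout, 2 higher throughout and 4 split. The MIR3689 cluster on chromosome 9 alone had more than 2 loci past the limit. All 6 probe sets of its 5 loci were lower in the siP62 array, with a median of -0.335 and a span of 0.69. MIR3689D2, with 5.33 in siP62 and 6.04 in siCONTROL (-0.71), passed through the siCONTROL array alone and so had to be lower. The other 5 probe sets, from 4 loci, had a median of -0.30. MIR3689A had 6.51 in siP62 and 6.81 in siCONTROL (-0.30), MIR3689D1 had 7.03 in siP62 and 7.05 in siCONTROL (-0.02), and MIR3689B had 6.10 in siP62 and 6.19 in siCONTROL (-0.09). The second probe set of MIR3689F had 6.23 in siP62 and 6.60 in siCONTROL (-0.37). MIR3689E, below the limit, had 3.41 in siP62 and 3.42 in siCONTROL. As printed above, miR-3689a-5p and miR-3689b-5p have the same sequence, so the probe sets may not be separate measurements; whether probes read several of these loci was not tested.

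In the cluster on chromosome X, MIR502 (-0.77) and MIR500B, with 5.38 in the siP62 array, against 5.63 in the siCONTROL array (-0.25), were both lower. The other 6 loci of that cluster lay below the limit, with differences from -0.87 for MIR501 to 0.07 for MIR500A.

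Neighbours in other clusters differed in direction or went together. MIR27B was higher by 0.58, whereas MIR23B, less than 1 kb away on the same strand, had 6.03 in the siP62 array, against 6.18 in the siCONTROL array (-0.15). MIR25 had 5.76 in siP62 and 5.57 in siCONTROL (0.19), and MIR106B, from the same intron-borne cluster of MCM7, had 5.24 in siP62 and 5.42 in siCONTROL (-0.18), a sign that its siP62 value below the limit fixed. MIR16-1 had 5.99 in siP62 and 6.29 in siCONTROL (-0.30), and its neighbour MIR15A, which with it is deleted in chronic lymphocytic leukaemia, had 5.61 in siP62 and 5.60 in siCONTROL (0.01). MIR1914 (0.13) and MIR647 (0.03) were both higher, and MIR338 was at 0.00 and MIR1250 at 0.15. A second probe set of MIR338, below the limit in both arrays, had 5.30 in siP62 and 4.56 in siCONTROL (0.74). Which of these MIR338 probe sets lies on the strand of the hairpin was not checked, so the 0.00 may not describe the locus.

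The large imprinted cluster on chromosome 14 had 2 of 42 loci past the limit, MIR134 at -0.55 and MIR1185-2 at 0.52. Each passed through 1 array alone, MIR134 with 5.22 in siP62 and 5.77 in siCONTROL and MIR1185-2 with 5.51 in siP62 and 4.99 in siCONTROL, so the limit fixed both signs. The primate-specific cluster on chromosome 19, known from placenta, had 2 of 43, MIR520E (0.21) and MIR518B (0.30). The median over the 11 cluster medians was -0.015.

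**Figure D3:**
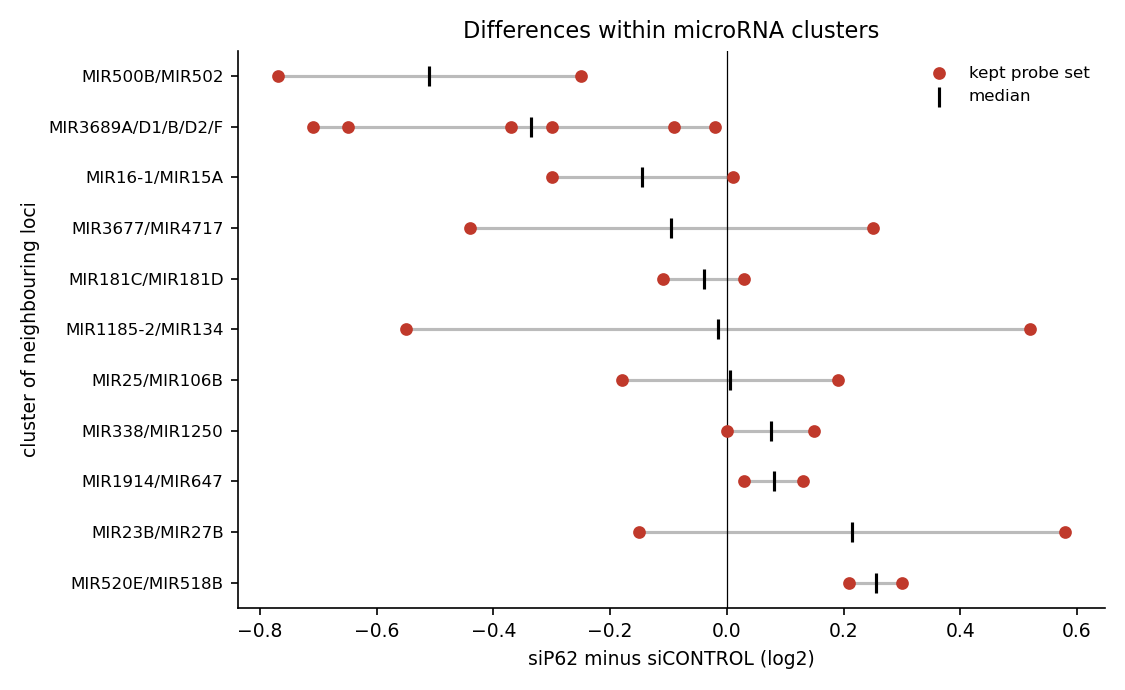
Differences siP62 minus siCONTROL (log2) of the probe sets past the level limit in 11 clusters of neighbouring microRNA loci, 1 row for each cluster, with the median as a black bar. The MIR3689 and MIR500B/MIR502 clusters lie wholly below 0, whereas MIR23B/MIR27B spreads over 0.73. MIR1185-2/MIR134 spreads over 1.07, with both signs fixed by the level limit.

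Loci that share a seed differed in direction in several families. Of 12 seeds carried by at least 2 loci past the limit (24 loci in all), 5 had all probe sets on one side of 0, of which 3 belong to the MIR3689 cluster and count it again. With only probe sets at or above the limit in both arrays, 10 seeds kept at least 2 loci, 4 of them with all probe sets on one side of 0 and 6 split. MIR1321 and MIR4756, which share a seed but lie on chromosomes X and 20, had 3 probe sets between -0.38 and -0.35. MIR1301 (0.13) and MIR5047 (0.28) were both higher.

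The pair of MIR25 (0.19) and MIR92B (-0.60) split, as did MIR1202 (0.35) and MIR3972 (-0.59). The 3 loci with the seed of miR-181, MIR181C, MIR181D and MIR4262, lay between -0.11 and 0.03. The let-7 loci, which the naming rule leaves out, had 4 of 10 loci past the limit, and 3 of them were lower. MIRLET7E, with 5.82 in siP62 and 6.17 in siCONTROL (-0.35), lies next to MIR99B, with 6.41 in siP62 and 6.75 in siCONTROL (-0.34).

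Some loci were read by several probe sets. There were 27 loci with at least 2 probe sets past the limit. In 7 of them all had the same values to both decimals in both arrays (MIR4640 5 times, MIR4454 3 times, and MIR574, MIR328, MIR3175, MIR3137 and MIR1229), so these repeats are no separate measurement. Of the other 20 loci, 9 had all probe sets lower in the siP62 array, 4 all higher, 6 had opposite signs (30.0%) and 1 had a probe set at 0. Among 201 other genes with distinct probe sets past the limit, 67 (33.3%) had opposite signs. Some of these signs were fixed by the limit, as for both probe sets of MIR3190 whose siP62 values lie below it. The restriction to probe sets at or above the limit in both arrays left 18 such microRNA loci. Of these, 8 had all probe sets lower, 3 all higher and 6 opposite signs (33.3%). Of 173 other genes so restricted, 48 had all probe sets lower, 64 all higher and 54 opposite signs (31.2%).

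The median span of the differences was 0.17 for the 20 microRNA loci and 0.14 for the 201 other genes. The widest was 0.59 for MIR3190, followed by 0.53 for MIR486-1, whose probe sets had 6.85, 7.27 and 7.27 in the siP62 array and 7.30, 7.19 and 7.19 in the siCONTROL array. MIR4292 spanned 0.51, with differences of -0.28 and 0.23. Close agreement was seen for MIR4533 (0.22 and 0.23), MIR1321 (-0.38 and -0.35) and MIR3619 (-0.27 and -0.23). Differences up to this median span were thus also found between probe sets that share a symbol. Whether all probe sets of a symbol lie on the same strand and read the same hairpin was not checked.

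**Figure D4:**
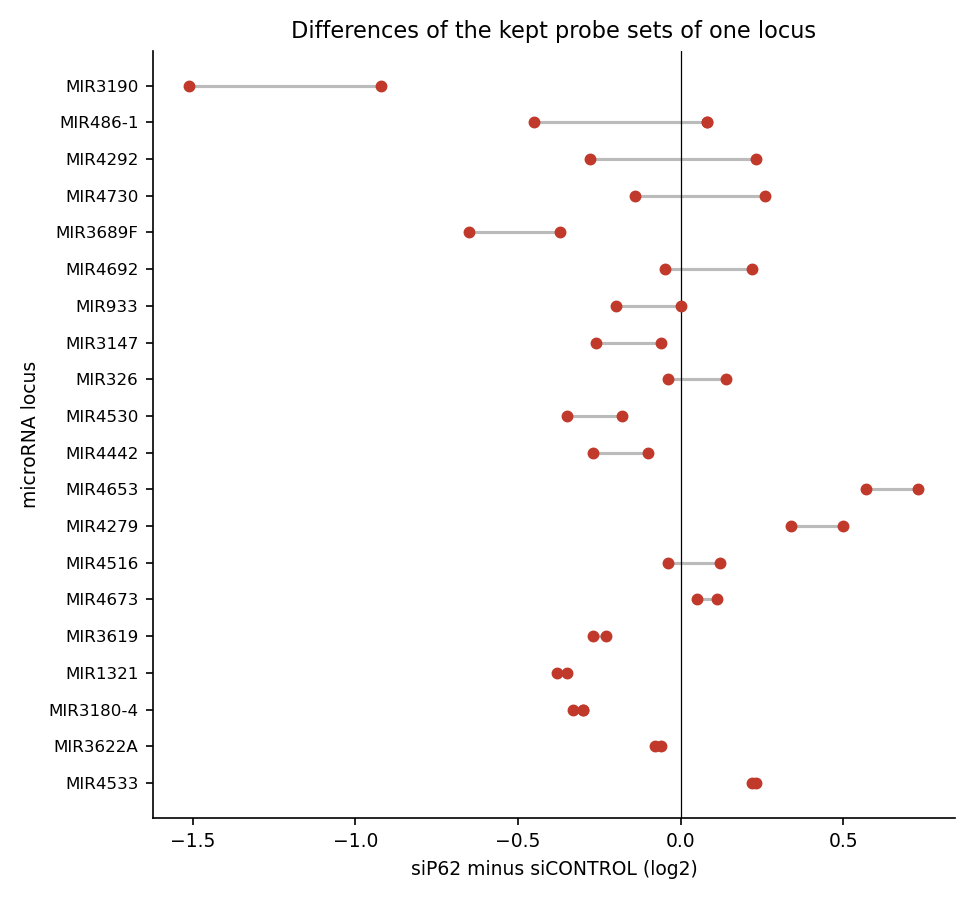
Differences siP62 minus siCONTROL (log2) of the probe sets past the level limit for the 20 microRNA loci whose probe sets had distinct values, 1 row for each locus, sorted by span. Spans reach 0.59 for MIR3190 and are as small as 0.01 for MIR4533, and 6 loci cross 0.

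The differences of host genes and of their microRNA loci were compared in pairs. Of the 207 loci, 111 lay within a gene on the same strand in RefSeq, and for 51 of them a host (47 genes in all) was named on the array and passed the limit. The hosts had a median difference of 0.00 and their microRNA loci one of -0.09. In 22 pairs both went the same way, in 25 opposite ways, and in the other pairs 1 of the values was 0. Pairs in which the strand of the locus or the host was unknown were left out of these counts. Among those left out, MIR4756 (-0.36) and BCAS1 (-0.42) were both lower, as were MIR4644 (-0.05) and FAM120B (-0.33) and MIR4469 (-0.13) and RNF170 (-0.03). MIR4288 (-0.46) and FZD3 (-0.32) were also lower, a sign that the limit fixed for MIR4288. MIR4737 (0.12) and HEATR6 (0.23) were both higher, and MIR4326 (-0.19) and ARFGAP1 (0.15) split. Across the 51 pairs, some of which share a host and all of which share both arrays, the differences had a Pearson correlation of 0.08. In the 38 pairs with locus and host at or above the limit in both arrays, 15 went the same way and 22 opposite ways, with a correlation of -0.17.

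MIR191 was lower together with DALRD3 (6.71 in siP62, 6.98 in siCONTROL, -0.27). MIR1908 (-0.63) and FADS1 (0.18) split, as did MIR27B (0.58) and AOPEP (-0.22). MIR3163, MIR3189 and MIR423 passed through the siCONTROL array alone, so their lower sign was fixed. Their hosts were PC, the pyruvate carboxylase gene (7.49 in siP62, 7.80 in siCONTROL, -0.31), GDF15, a stress-induced cytokine gene (8.80 in siP62, 9.11 in siCONTROL, -0.31), and NSRP1 (0.06). VMP1, whose transcript runs over MIR21, had 11.18 in siP62 and 11.13 in siCONTROL (0.05).

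**Figure D5:**
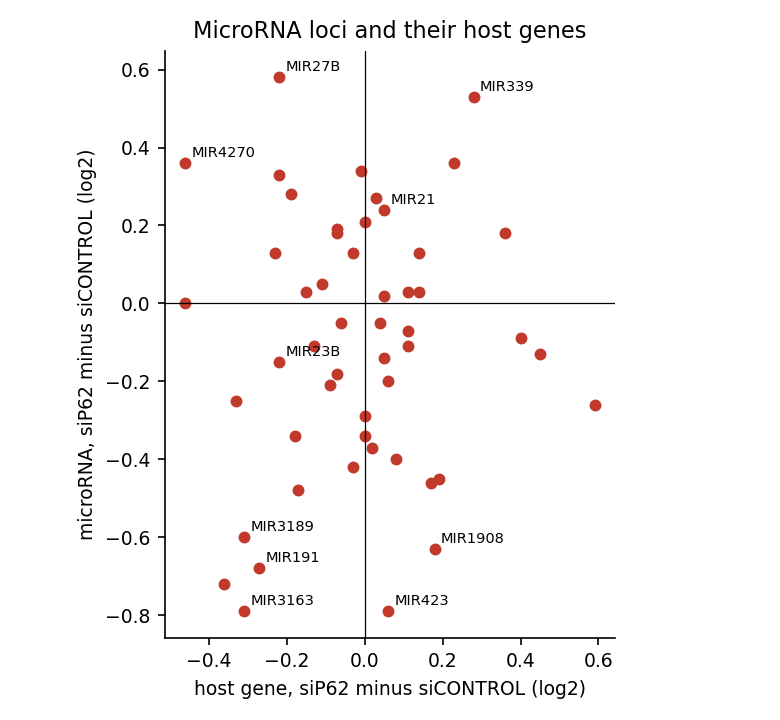
Difference siP62 minus siCONTROL (log2) of 51 microRNA loci (vertical) against that of the gene that holds each on the same strand (horizontal), 1 point for each locus. Points lie on every side of both zero lines, 22 with the same sign in both and 25 with opposite signs.

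Genes of the microRNA machinery had a median near 0, and the 6 genes of loading and silencing that were named on the array lay lower. Of 42 listed genes, 25 were named on the array and 24 passed the limit, with 13 lower, 10 higher, 1 equal and a median of -0.03. Thus 54.2% lay below 0, against 41.8% of all named probe sets past the limit. Of 16 listed genes of loading and silencing, only 6 were named on the array, so most of that group has no value here. These 6 had a median of -0.25, with 4 lower and 2 higher. The medians were -0.035 for 10 genes of nuclear processing and 0.03 for 7 of turnover and tailing. By 1.5-fold or more, 2 of the 24 machinery genes were lower (8.33%, against 1.57% of all named probe sets past the limit) and 0 higher. Both lower ones are among the 6 of loading and silencing (33.3%). TNRC6B, a GW182 protein of the silencing complex, had 7.19 in the siP62 array, against 8.18 in the siCONTROL array (-0.99). LIMD1, which bridges Argonaute and the silencing machinery, had 7.04 in siP62 and 7.75 in siCONTROL (-0.71). The other GW182 genes differed by -0.30 (TNRC6A) and 0.17 (TNRC6C), and DDX6, an RNA helicase of translational repression, by -0.20.

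In nuclear processing, DGCR8 had 6.35 in both arrays, DDX5, an RNA helicase of the DROSHA complex, differed by -0.19, and SRRT, which links cap binding to processing, by 0.46. The exporter XPO5 had 8.30 in the siP62 array, against 8.28 in the siCONTROL array. TARBP2, a partner of DICER1, differed by 0.39, and the nucleases XRN2 and DIS3L2 by 0.03 and 0.19. DROSHA, DICER1 and the Argonaute genes were not analysed here.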

How the data were processed

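The authors deposited log2 values, 1 for each of 48226 probe sets in either array. The submitters' processing notes name RMA and version 4.0.2.15 of Transcriptome Analysis Console. Labelling began from 100 ng of total RNA, per the labels' protocols. The genome build behind the probe sets, and the arrays that went through RMA together, were not given in the sources used here. RMA makes arrays alike, so a shift of all probe sets would not be seen. With 1 array a group there is no test, and precision is limited by the number of arrays.

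Symbols came from the platform annotation, which gives exactly 1 for 16098 probe sets. All 207 loci were found by gene ID in RefSeq's GRCh38.p14 table, which served for neighbours and hosts. Of these, 16 loci had no strand there and entered no cluster and no host pair. Differences (siP62 minus siCONTROL), counts, 20 level bins and correlations were computed in Python 3.11.15 with numpy 2.4.6 and pandas 2.3.3, and the counting was tested on simulated data.

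Members, gene lists and thresholds were chosen with earlier results of these data known. Genes were named if they differed by 1.5-fold or were among the 12 highest or lowest in difference or the 12 highest in level. Others were named because they had several probe sets, shared a cluster or seed, lay at the limit, or were hosts or machinery genes. A selection of these is given, and let-7 loci, MIR31HG and the other transcripts with HG symbols named beside it were added after their values were seen. The alternatives tried were other level limits, centring, quantile normalization, 1 value per locus and hosts on either strand.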

Additional observations from a re-analysis of the deposited data

How the results depend on the processing

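The median difference of the microRNA probe sets stayed below 0 under all 8 alternatives. It was -0.06 with no level limit (1226 probe sets), -0.13 after subtraction of the median difference of all named probe sets, -0.12 after a loess curve was subtracted and -0.115 after quantile normalization of the columns, and between -0.10 and -0.08 under the others. The number lower by 1.5-fold or more, 18 as deposited, was 78 with no limit (2.14% of all 16098 named probe sets were lower), 8 with both arrays at the limit (1.29% of all) and 4 with the limit at the 70th percentile (6.67, 1.62% of all), where 78 microRNA probe sets were left. The number higher, 4 as deposited, was 34 with no limit (2.09% of all), 0 with both arrays at the limit (1.5% of all) and 0 at the 70th percentile (1.76% of all). At 2-fold, no limit gave 3 higher (0.155% of all) and 7 lower (0.18% of all). Under either stricter limit 0 were lower, in place of 1 (0.205% of all with both arrays at the limit, 0.317% at the 70th percentile). The stricter limits leave fewer probe sets, and the one on both arrays removes those that passed through 1 array. The span of probe sets of a locus, 0.16 over all 27 loci, was 0.06 over 25 loci with both arrays at the limit, but 0.17 in either case over loci with distinct values (20 and 18 loci). That limit, added for groups after seeing the data, left 4 of 9 clusters and 4 of 10 seeds on one side of 0, against 4 of 11 and 5 of 12. With 1 probe set per locus, hosts on either strand or no limit for the machinery list, the medians of clusters, seed families, hosts and machinery genes moved by no more than 0.005, and the median over clusters was -0.04 with both arrays at the limit. No paired analysis was possible because each group is 1 array. The counts past 1.5-fold thus depend on the level limit, and low signal limits every locus near it.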
